A study of Mus musculus with 12 samples.

Results

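Some stretches of RNA were recovered by an antibody against N6-methyladenosine (m6A) while the controls of 2 or more peak lists held no sequence tags there. They are named m6A-enriched regions with almost no input RNA, as far as the lists' controls are input. Which library served as control is not named in the labels. Peaks of the 4 deposited lists that shared 1 bp or more were merged into 70674 regions. A region was a member when 3 or 4 lists called it and 2 or more of those lists had no control tag in any of their peaks there. The rule found 352 members, which is 1.99% of the 17654 regions called in 3 or 4 lists. The name covers the empty controls only. In the deepest control, that of 2-week replicate 1, 29.8% of the called members had no tag and 16 members had 10 or more. The remaining 17302 such regions are called other regions here. The control tags and calls chose the members, so control tags, enrichment and the levels that go with them are given as a description without a test.

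The libraries came from hippocampi of wild-type C57BL/6 males, sex and strain being as the series' design gives them, with 2 m6A immunoprecipitation (IP) libraries at 2 weeks of age and 2 at 6 weeks. Every library was made from poly(A)-selected, fragmented RNA, and all groups used here share the genotype and tissue. The labels number the libraries, as replicates at 2 weeks and as m6A-IP-1 and m6A-IP-2 at 6 weeks. They do not name animals or say whether hippocampi were pooled, so p-values measure the spread between these libraries. The tissue could not be checked against marker genes, because no annotation of the files' genome build (mm9) was used here and the regions carry coordinates without gene names.

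N6-methyladenosine is a methyl mark placed on adenosines of messenger and long noncoding RNA by a nuclear methyltransferase complex around METTL3, and it can be removed by the demethylases FTO and ALKBH5. Reader proteins of the YTH family bind the mark and affect splicing, translation and decay of the marked RNA. In brain the mark is abundant, and FTO has been linked to neurogenesis in the adult hippocampus. In m6A-IP sequencing, a peak is called where IP tags exceed those of the input, so a region can be called either on an abundant RNA with moderate enrichment or on a scarce RNA that the antibody recovers strongly.

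Depth sets what a missing control tag means. From the scaling of the files, IP depth was 23.4 and 23.0 M (1000000) tags for 2-week replicates 1 and 2 and 16.1 and 16.5 M for 6-week replicates 1 and 2, and control depth was 29.3, 16.8, 15.8 and 11.7 M in that order. A count of 0 allows up to 3 tags, which corresponds to 1.02, 1.78, 1.90 and 2.56 control tags per 10 M; such limits and all intervals here cover counting error only. Peaks without a control tag made up 7.07% and 17.8% of the 2-week lists and 6.73% and 14.3% of the 6-week lists. The list of 6-week replicate 1 stood apart, since its peaks without a control tag had a median of 18 IP tags, against 9, 11 and 11 in 2-week replicates 1 and 2 and 6-week replicate 2. The age and focus ratio results below are given with and without it.

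The 2-week lists called 329 and 339 of the 352 members (93.5% and 96.3%), and the 6-week lists called 253 and 270 (71.9% and 76.7%). Other regions were also called more often at 2 weeks, with 95.2% and 93.0% against 83.3% and 86.7% at 6 weeks. All 4 lists called 135 members (38.4%), against 58.2% of other regions, and 3 lists called 217. The list that lacked the call was 6-week replicate 1 for 99 members, 6-week replicate 2 for 82, 2-week replicate 1 for 23 and 2-week replicate 2 for 13.

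Of the members, 308 had no control tag in 2 lists and 44 in 3 lists; none lacked control tags in all 4. A list called a member without a control tag in 29.8% of its called members in 2-week replicate 1, 65.8% in 2-week replicate 2, 71.9% in 6-week replicate 1 and 90.7% in 6-week replicate 2. Among other regions these shares were 0.425%, 1.81%, 2.37% and 6.79%. The shares rose in both sets as the controls became shallower. The commonest pair of lists without a control tag was replicate 2 of both ages, with 99 members, followed by both 6-week lists, with 84. A further 52 members had none in 2-week replicate 2 and 6-week replicate 1, and 30 had none in both 2-week lists. Depth and age of the controls cannot be told apart in these counts.

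**Figure D1:**
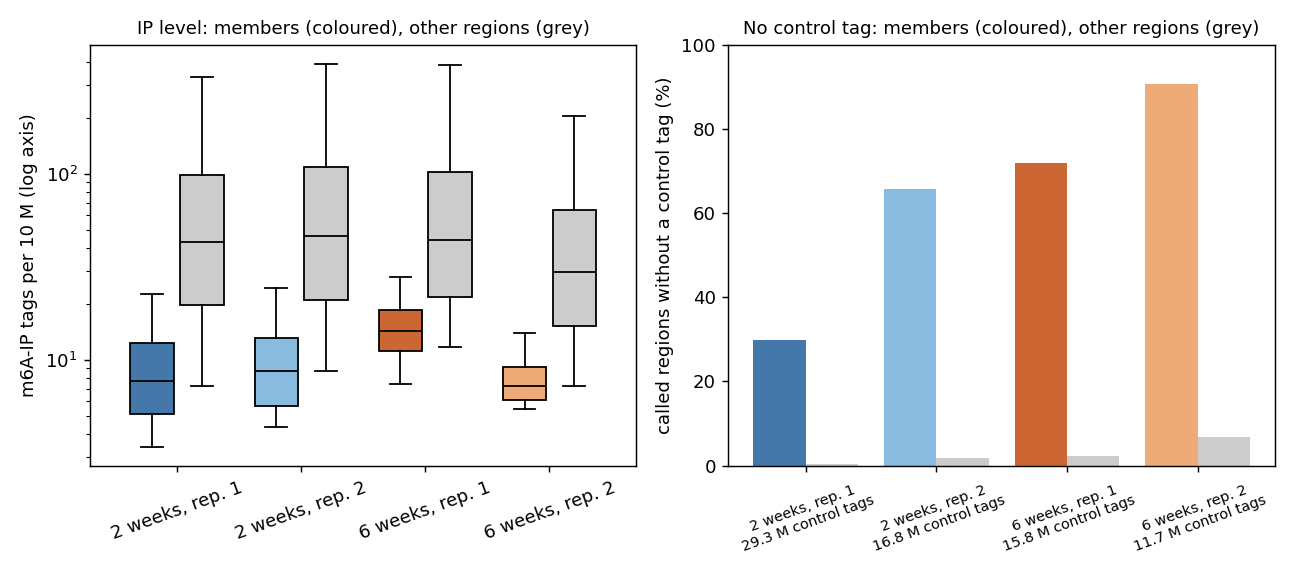
Left, m6A-IP tags per 10 M (log axis) in each library for members (coloured) and other regions called in 3 or 4 lists (grey); boxes span the quartiles with the median, and whiskers the 5th to 95th percentile. Right, percent of the called regions of each set without a control tag, with the control depth under each library; members reach 90.7% in 6-week replicate 2, which has the shallowest control.

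Members were weak peaks. In the order above, their median IP level was 7.68, 8.71, 14.3 and 7.27 tags per 10 M, and that of other regions 43.1, 46.2, 44.0 and 29.7. In raw tags the member medians were 18, 20, 23 and 12. A total of 191, 180, 95 and 250 called members had 20 IP tags or fewer, and the last of these is 92.6% of the members called in 6-week replicate 2. Averaged over the lists that called it, a member held from 4.41 to 112 IP tags per 10 M, with a median of 9.52, and 15 members reached 20. Against the limit that 0 control tags allow, the IP level of members without a control tag was at least 5.21-fold higher at the median in 2-week replicate 1 (98 members), 4.15-fold in 2-week replicate 2 (223), 7.34-fold in 6-week replicate 1 (182) and 2.60-fold in 6-week replicate 2 (245). In 6-week replicate 2 the bound reached 3 in only 41.2% of them. For most of these 245 members, IP tags and control depth thus did not bound the enrichment at 3-fold, where the lists start.

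The member with the highest mean IP level was chr1:42756859-42756982, with 112, 135 and 89.6 IP tags per 10 M in 2-week replicates 1 and 2 and 6-week replicate 2, and no call in 6-week replicate 1. Its control held 55 tags in 2-week replicate 1 and none in 2-week replicate 2 or 6-week replicate 2. The 55 tags are 18.8 per 10 M (95% exact Poisson interval 14.1 to 24.4), and the limits of the empty controls are 1.78 and 2.56. Against those limits its IP level was at least 75.5-fold and 34.996-fold higher, while the authors' fold over control was 5.98 in 2-week replicate 1, where the control had tags. In that library the 55 control tags lay above the upper quartile of other regions, which was 50, with a median of 22. The nearest region called in 3 or more lists lay 144 bp away, and 7 such regions lay within 10 kb. The highest control level among these neighbours was 110 tags per 10 M. Whether the RNA at this region was scarce was not tested. The region had control tags in 1 library and none in a pair of others, with IP levels of the same order in all 3, and the reason was not tested.

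The next highest, chr13:59033843-59033966, showed the same arrangement, with 44.4, 55.3 and 19.99 IP tags per 10 M in 2-week replicates 1 and 2 and 6-week replicate 2, and with 7, 0 and 0 control tags. It was not called in 6-week replicate 1 either. At chr17:86566249-86566503, 1 library was far above the rest: the IP level was 12.8 and 12.2 tags per 10 M at 2 weeks, and 67.6 and 17.6 at 6 weeks. Its controls held 7, 0, 6 and 0 tags, and the nearest other region called in 3 or 4 lists lay 487415 bp away.

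Of the 10 highest members, 5 had control tags in both 2-week lists and in neither 6-week list. At chr11:102661629-102661816 the IP level was 36.7 and 37.0 per 10 M at 2 weeks and 24.8 and 9.09 at 6 weeks, with 8, 6, 0 and 0 control tags. At chr9:58372370-58372629 it was 41.0 and 32.2 against 13.6 and 12.7, with 14, 6, 0 and 0 control tags. The region chr17:33379461-33379581 had 23.0 and 44.4 against 19.8 and 12.1, with 7, 7, 0 and 0 control tags. In each of these 3 regions both 6-week IP levels lay below both 2-week levels, as in 41.7% of all 10203 regions called in all 4 lists, and the control tags were likewise fewer at 6 weeks.

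The other two of that group lie on chromosome 7. At chr7:6346332-6346577 the IP level was 32.4 and 35.7 per 10 M at 2 weeks and 15.5 and 10.9 at 6 weeks, with 8, 4, 0 and 0 control tags. At chr7:112920663-112920858 it was 33.3 and 35.3 against 16.7 and 7.27, with 15, 10, 0 and 0 control tags. The groups did not overlap in either region. All 5 regions were chosen partly by their missing 6-week control tags, so their direction is not independent of the rule.

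The remaining 2 of the 10 differed strongly between libraries. At chrY:2856194-2856387 the IP level was 60.2 per 10 M in 2-week replicate 1, and 6.10 and 6.06 in 2-week replicate 2 and 6-week replicate 2, with 23, 0 and 0 control tags. At chr9:99213731-99213844 it was 5.97 and 13.1 at 2 weeks and 47.7 in 6-week replicate 1, with 0, 0 and 5 control tags and no call in 6-week replicate 2. In both, the library with the most IP tags was also the one with control tags.

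**Figure D2:**
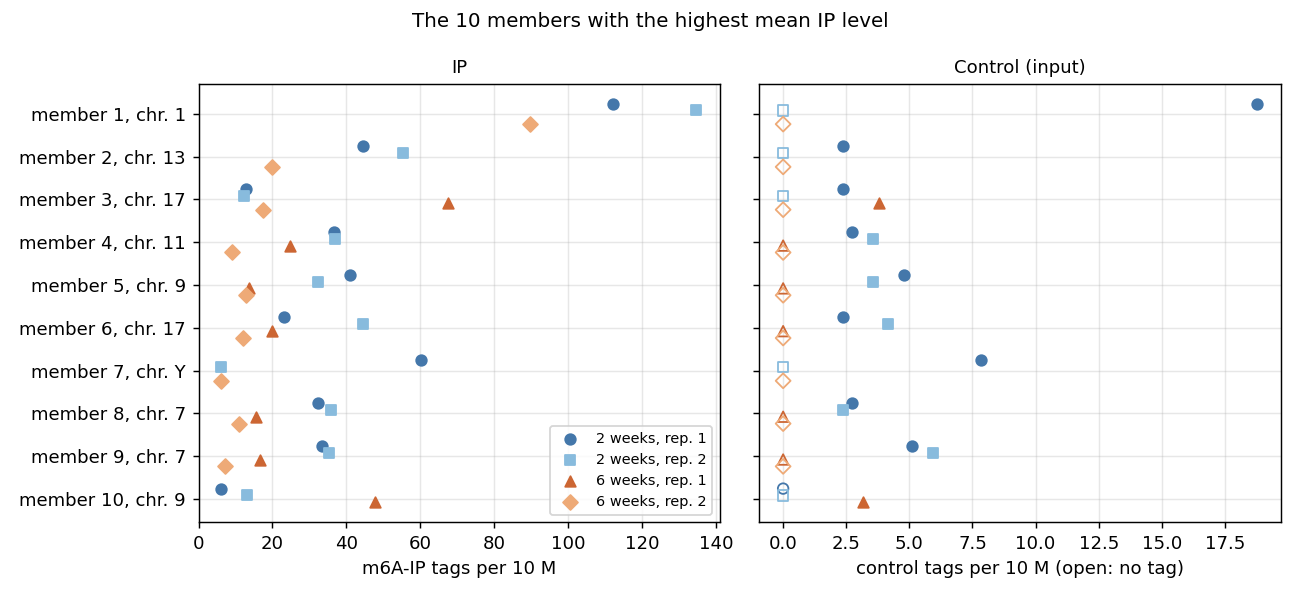
IP tags per 10 M (left) and control tags per 10 M (right) in each library for the 10 members with the highest mean IP level, ordered from the highest; open symbols mark called peaks without a control tag and a missing symbol a list without a call. Member 1 has 18.8 control tags per 10 M in 2-week replicate 1 and none in replicate 2 of either age, and in members 4, 5, 6, 8 and 9 only the 6-week controls are empty.

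The highest control levels among members came from the 2-week lists. After chr1:42756859-42756982, the highest was at chrY:2856194-2856387, with 7.85 tags per 10 M in 2-week replicate 1 (95% exact Poisson interval 4.97 to 11.8). The next 5 were chr7:142110221-142110341 at 6.82, chr8:23488135-23488411 at 6.54, chr7:112920663-112920858 at 5.94, chr18:50053340-50053482 at 5.46 and chr9:58372370-58372629 at 4.78 control tags per 10 M. In these 5 both 6-week controls were empty. The highest control was 2-week replicate 1 in 5 of the 7 and 2-week replicate 2 in 2. The rule required the empty lists, so these values are a description.

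At the other end, 22 members had no control tag in any list that called them. Each was called in 3 lists, and 14 of them had no other region of 3 or 4 lists within 10 kb. Their IP tags ranged from 7 to 30 and from 9 to 24 in the 2-week libraries and from 10 to 44 and from 9 to 19 in the 6-week libraries. The 5 with the highest mean IP level, singled out after their values were seen, began with chr11:95693878-95694034, with 30, 20 and 44 IP tags in 2-week replicates 1 and 2 and 6-week replicate 1. Those are at least 12.5-fold, 4.89-fold and 14.4-fold above the limit of an empty control. The second, chr9:67599404-67599595, had 10, 28 and 19 IP tags in 2-week replicate 1 and both 6-week libraries. The third, chr16:5088754-5088894, had 20, 29 and 9 in 2-week replicate 2 and both 6-week libraries. The last pair, chr2:10001447-10001629 and chr5:124328161-124328282, had 14, 12 and 29 and 17, 22 and 19 in both 2-week libraries and 6-week replicate 1. The third, the fourth and the fifth were also remote, at 11368, 12208 and 46429 bp from the nearest other region of 3 or 4 lists.

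The threshold lies within a continuum. Among regions called in 3 or 4 lists, 1721 had no control tag in exactly 1 list, and 572 of these had 1 tag in the next lowest list. The members with 2 empty lists and the most control tags elsewhere were chr1:42756859-42756982, with 55, then chr7:112920663-112920858 and chr7:142110221-142110341, with 25 each summed over the lists. Just outside stood chr15:38927109-38927232, chr19:56795497-56795700 and chrX:166417478-166417581, each with 2 control tags in all. Their IP tags were 43, 26 and 14, then 15, 15 and 49, then 38, 26 and 25 in the lists that called them. The regions just outside were picked for the fewest control tags among the 572, and the members for the most. Their order in control tags was thus set by the choice. In all, 197 members had 3 or fewer control tags summed over the lists.

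Position was not used by the rule. Of the members, 197 (56.0%) lay less than 10 kb from another region called in 3 or 4 lists, against 75.5% of other regions. The median gap to the nearest such region was 4608 bp for members and 430 bp for other regions. A median of 1 such region lay within 10 kb of a member, against 2 for other regions. Few members stood alone when every called peak was counted: 91.8% had a region of any list within 10 kb, and 95.01% of other regions did.

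Neighbours of members held fewer control tags than neighbours of other regions. Of the 197 members with a neighbour within 10 kb, 44 (22.3%) had one whose highest control level reached 10 tags per 10 M, against 64.6% of the 13066 other regions with a neighbour. Members had fewer neighbours over which to take the highest level. Over these members the highest control level among the neighbours had a median of 4.75 tags per 10 M, against 14.6 for other regions. The neighbours' control tags were not part of the rule, but regions of 1 transcript share its abundance. These values are shares and medians over regions, which are not replicates, and no test was made.

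**Figure D3:**
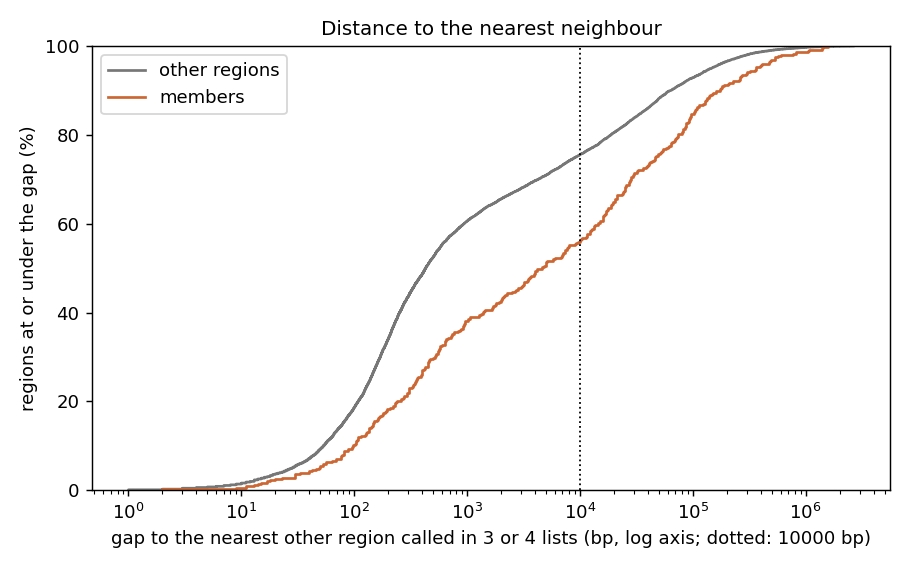
Cumulative percent of members and other regions by the gap in bp (log axis) to the nearest other region called in 3 or 4 lists; the dotted line marks 10000 bp. The curve of members lies below that of other regions, with 56.0% against 75.5% at the line.

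The members formed 340 loci when members less than 10000 bp apart were joined, of which 330 held 1 member, 8 held 2 and 2 held 3. There were 22 members (6.25%) with another within that distance. Next come both loci with 3 members and, of the 8 with 2, those 3 with the highest summed IP level.

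The locus on chromosome Y, chrY:2853775-2865727, held 3 members among 8 regions of 3 or 4 lists and 32 regions in all. Its members had 38, 141 and 22 IP tags in 2-week replicate 1, 12, 14 and 16 in 2-week replicate 2, and 16, 10 and 10 in 6-week replicate 2. Their controls held 6, 23 and 4 tags in 2-week replicate 1 and none in 2-week replicate 2 or 6-week replicate 2. The chromosome Y members numbered 5 of 42 regions of 3 or 4 lists there (11.9%), the highest share of any chromosome; on the other chromosomes with members it ran from 1.22% (chromosome 11) to 3.06% (chromosome 17). All 5 lay in 1 stretch, chrY:2853775-2900457, so the share rests on that stretch. They had control tags in 2-week replicate 1 only, and none was called in 6-week replicate 1. That list called only 7 of the 42 regions on chromosome Y, although the series' design gives the animals as male.

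The second locus with 3 members was chr12:21566754-21570472, whose 3 members were the only regions called between its ends. Its first member, chr12:21566754-21566923, had 18, 23 and 12 IP tags in 2-week replicates 1 and 2 and 6-week replicate 2, and no control tag in any of them. The second, chr12:21567059-21567249, had 22, 27 and 15 IP tags in 2-week replicate 2 and both 6-week libraries, with 2, 0 and 0 control tags. The third, chr12:21570361-21570472, had 21, 47, 49 and 14 IP tags in the 4 libraries and 2, 0, 0 and 0 control tags. The locus ends at its outermost members by construction. The nearest called region lay 33 bp and the nearest region of 3 or 4 lists 457 bp from the third member, and each of the 3 members had 5 regions of 3 or 4 lists within 10 kb.

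The other three loci held 2 members each. At chr9:99213731-99214623 the IP tags were 14, 30 and 77 in the first member, described above, and 11, 30, 20 and 10 in the second, whose controls held 1, 0, 2 and 0 tags. At chr7:28747796-28749846 they were 31, 51, 26 and 14, and 46, 48, 21 and 10, and both members had no control tag at 6 weeks. At chr17:21798731-21799194 the first member had 31, 47, 23 and 17 IP tags and 10, 5, 0 and 0 control tags. The second had 29, 15 and 12 IP tags in 2-week replicates 1 and 2 and 6-week replicate 2, with 4, 0 and 0 control tags.

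Within the regions, the peaks of different lists started slightly further apart in members, which had fewer IP tags. This was not compared at like tag counts. The starts of the highest peak of each list lay a median of 56 bp apart, against 38 bp in other regions. The median region was 161 bp wide for members and 149 bp for other regions, and 63.6% of members had exactly 1 peak in each calling list, against 54.5%. The caller's focus ratio, the share of a peak's tags that lie where a single site at its centre would put them, had a median of 0.732, 0.750, 0.875 and 0.708 in member peaks and 0.727, 0.744, 0.794 and 0.70 in other peaks. The difference averaged 0.025 ± 0.0374 (SD, n = 4 libraries), with an exact two-sided sign-flip permutation p of 0.13, the smallest that 4 libraries allow. It was 0.081 in 6-week replicate 1 and 0.005 to 0.008 in the others, and without 6-week replicate 1 the mean was 0.00633. In lists with exactly 1 peak in the region the differences were -0.005, -0.002, 0.08 and 0, so the difference did not keep its sign in the first 2 libraries. With at most 1 control tag counted as none they were 0, 0, 0.06 and 0.008.

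The last question was whether IP tags of members differed between the ages. Both 6-week IP levels per 10 M lay above both 2-week levels in 23 of the 135 members called in all 4 lists (17.0%), against 6.49% of all 10203 regions called in all 4. They lay below both in 32 members (23.7%), against 41.7% of all. The highest of the 4 levels was that of 6-week replicate 1 in 77 of the 135 members (57.0%) and in 34.2% of other regions called in all 4. Between the 6-week replicates, the log2 difference of replicate 1 minus replicate 2 had a median of 0.93 over 171 members and 0.60 over other regions; between the 2-week replicates it was -0.17 and -0.15. The offset between the 6-week libraries was thus larger at members, though other regions showed one too. It was not compared at like tag counts, and the rule uses the calls and control tags of both libraries. The SD of this 6-week difference was smaller at members, with 0.62 against 0.78 over other regions.

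A test was possible at the 4577 regions where every list had exactly 1 peak, 59 of them members. These 59 had to be called in every list, so they do not stand for the 352. The rule uses the calls and control tags of each list, so their IP levels by age are not independent of it. The median log2 change was 0.41 in the 37 with both 6-week controls and fewer 2-week controls empty. It was 0.49 in the 18 with 1 empty control at each age, and 1.19 in the 4 with both 2-week controls and fewer 6-week controls empty. Of the 59, 4 rose from 2 to 6 weeks and none fell in edgeR's quasi-likelihood test (adjusted p under 0.05), where 0.852% of all 4577 regions rose and 0.24% fell. An unadjusted p under 0.05 was found in 19 of the 59 (32.2%) and in 17.5% of all regions. Among regions with at most 30 IP tags on average, 4 of 46 members (8.7%) and 10 of 316 other regions (3.16%) rose, and an unadjusted p under 0.05 was found in 37.0% and 26.3%. The median log2 change there was 0.62 in members and 0.56 in other regions. Over all that were fitted it was 0.45 in members and 0.03 in all regions. The members' median depended on scaling and libraries: it was 0.10 with library totals (all regions -0.37), 0.0099 in limma (all regions -0.41), and 0.31 without 6-week replicate 1 (all regions -0.0095). The lowest number of IP tags in a listed peak was 5, 9, 7 and 9, which is 2.13, 3.92, 4.34 and 5.45 tags per 10 M, so weak regions needed a higher level to be listed at 6 weeks. The part of this minimum in the positive median was not tested.

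The smallest p was at chr15:95574392-95574551, with 8, 9, 49 and 11 IP tags, which is a mean of 3.67 ± 0.358 per 10 M at the younger age and 18.5 ± 16.8 at the older (SD, n = 2 each). The log2 change was 2.61 ± 0.53 with TMM scaling (SE, edgeR adjusted p = 0.0313) and 2.32 with library totals, the scaling of the levels per 10 M. The controls held 0, 0, 0 and 1 tags. Most of the increase was in 6-week replicate 1; without it the log2 change was 1.59 and did not pass (edgeR adjusted p = 0.195).

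The region chr3:126141131-126141248 had 8, 15, 44 and 17 IP tags, a change of 2.25 ± 0.48 on the log2 scale (SE; edgeR adjusted p = 0.0350) and 0, 1, 0 and 0 control tags. At chr15:95298112-95298229 the IP tags were 8, 10, 40 and 11, the log2 change 2.32 ± 0.50 (SE; edgeR adjusted p = 0.0350) and the control tags 0, 1, 3 and 0. At chr3:113246436-113246619 the IP tags were 12, 11, 60 and 10, the log2 change 2.38 ± 0.55 (SE; edgeR adjusted p = 0.0418) and the control tags 0, 1, 3 and 0. In each of the 4 regions that rose, both 6-week levels per 10 M lay above both 2-week levels and 6-week replicate 1 was the highest. Without 6-week replicate 1 the changes of these 3 were 1.79, 1.51 and 1.02, and none passed. None of the 4 passed when either 2-week library was left out, with library totals in place of TMM, or in limma, and in the last 2 settings no region at all passed (10 and 6 of the 59 had an unadjusted p under 0.05, which is 16.9% and 10.2%, against 16.1% and 16.3% of all regions). Under DESeq2, 3 of the 59 rose and none fell, against 1.31% and 0.961% of all regions. With the replicate number as a block, 8 rose and none fell, against 2.45% and 1.7%. With the highest peak per list at all 135 members called in all 4 lists, none rose or fell in edgeR, against 0.049% and 0.0098% of 10203 regions, and 43 of the 135 (31.9%) had an unadjusted p under 0.05, against 16.5% of all.

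The fifth member toward higher levels, chr11:75667389-75667595, did not pass but was even between replicates, with 12 and 18 IP tags in the younger libraries and 25 and 29 in the older ones. Its log2 change was 1.80 ± 0.46 with TMM scaling (SE, edgeR adjusted p = 0.0619) and 1.34 with library totals. The levels per 10 M, which are scaled to library totals, went from 6.48 ± 1.92 to 16.5 ± 1.46 IP tags (SD, n = 2 each). The controls held 0, 0, 1 and 0 tags. The groups did not overlap here. Without 6-week replicate 1 its log2 change was 2.18, and it was then the only member that passed (edgeR adjusted p = 0.00505).

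No member fell in edgeR's test, and 1 with a negative change had an unadjusted p under 0.05. The 5 with the smallest p toward lower levels began with that one, chr7:112920663-112920858, whose log2 change was -1.15 ± 0.43 (SE) at an edgeR adjusted p of 0.186. It was followed by chr7:142110221-142110341 at -0.86 ± 0.43, with 59, 48, 21 and 11 IP tags, and chr5:34334669-34334799 at -0.64 ± 0.42, with 43, 56, 21 and 13. The list ended with chr7:86244282-86244407 at -0.52 ± 0.46, with 53, 31, 21 and 11 IP tags, and chr4:46515753-46515935 at -0.47 ± 0.45, with 40, 29, 18 and 9. All 5 had control tags in both 2-week lists and none in either 6-week list.

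**Figure D4:**
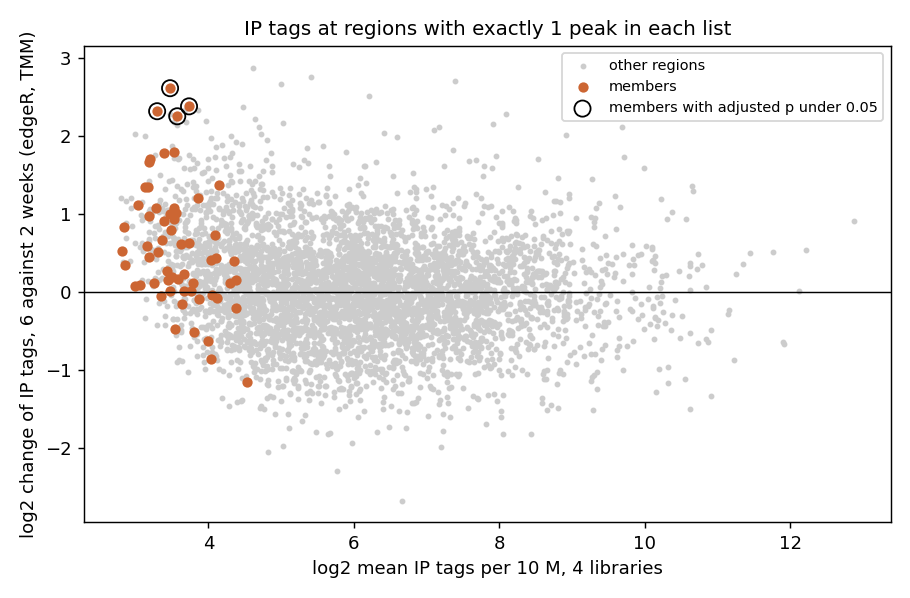
Log2 change of IP tags from 2 to 6 weeks (edgeR, TMM scaling) against the log2 mean IP tags per 10 M over the 4 libraries, for 4577 regions where every list had exactly 1 peak; members are coloured and the 4 that passed an adjusted p of 0.05 are ringed. Members lie at the low end of the IP levels, and most lie above 0, with a median of 0.45 against 0.03 for all regions (0.10 against -0.37 with library totals).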

How the data were processed

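Per the submitters' processing notes, the tools were TopHat2 2.0.13 and 2.1.1, HOMER (no version), Cufflinks 2.2.1 and Bowtie2 2.2.3, with the mouse build mm9 and no role or order given. Each library has its own deposited peak list, so replicates were not pooled; for caller options and control libraries, the answer is not given in the sources used here. Of 12 labelled samples, 4 were analysed and 8 were not.

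Per the file headers, 1 deposited list (2-week replicate 1) holds whole IP tag counts beside control tags as a signal scaled to IP depth, and the others hold IP tags scaled to control depth and unscaled control tags. The normalized tag level that the authors deposited is a signal. The deposited focus ratio is a fraction. The authors' score, fold ratio over control and p-value per peak were not tested. Whole tags were recovered by dividing by the value of 1 tag (100% of peaks within 0.2 tag), which assumes scaling to 10000000 tags. An automatic check for whole reads, which takes a list's smallest value as 1 tag, did not find them in those lists, whose peaks start at 7 or 9 tags. A control value at the lists' minimum (0.5 tag) was set to 0. Where a list had several peaks in a region, the IP tags are those of its highest peak, the control tags the most in any peak, and all its peaks had to lack a control tag, a reading of the rule chosen after the data were seen; so were the limit of 30 IP tags and the regions without any control tag or on chromosome Y.

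IP tags were compared with edgeR 4.0.16 (quasi-likelihood, TMM) over all 4577 regions with exactly 1 peak in each list, with Benjamini-Hochberg adjustment. The recovered tags replace the counts that only 1 list gives directly. The fit was tested on simulated data, where it called 26 of 100 log2 changes of 1, 94 of 100 of 2 and 9 of 4377 unchanged regions. The simulation used 1 common dispersion (0.0767) for all regions and no offset between libraries beyond their totals. Its calls were not split by IP level, so they do not give the shares at the low levels of members. Changes of about 1 or less could thus be missed, also among members. Replicates differed by more than sampling noise (chi-square per degree of freedom 16.7 and 22.0). DESeq2 1.42.0, limma 3.58.1 (pseudocount 1), R 4.3.3, Python 3.11.15, pandas 2.3.3, numpy 2.4.6 and scipy 1.17.1 were also used. Input tags and the IP to input ratio were not tested, since the rule uses control tags.

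Regions named in the text were the 10 members with the highest mean IP level, the 5 with the smallest p in each direction, the 5 loci with the most members (ties by summed IP level), and 3 on each side of the rule; the planned 5 without a control tag in all 4 lists do not exist. The members, lists and rules were chosen with earlier results of these data known. No genome of the files' build was used, so no sequence, motif or gene is given.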

Additional observations from a re-analysis of the deposited data

How the results depend on the processing

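The 352 members became 1407 when at most 1 control tag counted as none, 44 when 3 or more lists had to lack control tags, 135 when all 4 lists had to call the region, and 109 to 157 when 1 library was left out, since 3 of 3 lists then had to call it. They became 585 when 1 peak without a control tag was enough in a list, a reading added after the data were seen. A 50 bp overlap, an 8-fold minimum and leaving out the mitochondrial and Y chromosomes kept the count within 1.5 times. Members with another member nearby (22) became 14 under 1000 bp, 37 under 50000 bp, and 2 to 9 with 1 library left out (added after the data were seen).

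The 4 members whose IP tags rose became 0 with library totals (10 at an unadjusted p under 0.05), 0 in limma (6), 0 of 135 with the highest peak per list (43), 2 of 7 with peak starts within 20 bp, 8 with the replicate number as a block, and 0 to 12 with 1 library left out; an age with 1 library borrows the spread of the other age. DESeq2 called 3. Dropping a library leaves 1 at its age, so the median log2 change is given for each such fit. Omitting 2-week replicate 1 gave 0.56 in members (all regions 0.03), and omitting 2-week replicate 2 gave 0.52 (all regions 0.03). The members' median fell to 0.31 (all regions -0.0095) when 6-week replicate 1 was dropped. It rose to 0.65 (all regions -0.026) when 6-week replicate 2 was dropped. No member fell in any of these settings. Library totals moved the median log2 change of all regions from 0.03 to -0.37 and of the members from 0.45 to 0.10. The IP tags of same-numbered libraries did not deviate together (r = 0.027 over the regions fitted). That value does not cover their controls, and whether they share a batch was not tested. The filter of 10 IP tags removed nothing. The mean focus ratio difference ranged from 0.00633 to 0.0317 with 1 library left out (added after the data were seen); it was 0.0183 in lists with exactly 1 peak (exact permutation p = 1), where 2 libraries were negative, and 0.017 with at most 1 control tag (exact permutation p = 0.5). The 10 named members in the fit kept their sign in all 103 alternatives.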

Other observations

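No region lacked control tags in all 4 lists when every peak was counted. With 1 empty peak enough, 4 regions did, chosen after their values were seen. These were chr10:81476829-81477135, with 16, 12, 20 and 10 IP tags in its highest peaks (2-week replicates 1 and 2, then 6-week), chr17:22153056-22153267, with 18, 28, 11 and 11, chr17:63829843-63830311, with 23, 21, 25 and 15, and chr7:106961696-106961962, with 30, 48, 47 and 12. Their controls reached 1, 1, 0 and 0 tags at the first, 3, 1, 0 and 0 at the second, 2, 3, 1 and 0 at the third and 8, 3, 3 and 0 at the last. Each list called 2 or more peaks at the third and the last.

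The 99 members with empty controls in replicate 2 of both ages, and in no other list, lacked a call in 6-week replicate 1 in 68 cases. They include chr1:42756859-42756982, chr13:59033843-59033966 and the 5 members on chromosome Y.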
